A study of Triticum aestivum with 20 samples.

Results

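Long stretches of bread wheat chromatin that carried none of the measured marks, in leaf or in vernalized leaf, were located along the chromosomes. Members were selected on the deposited chromatin states themselves. A stretch was kept when every bin of 200 bp had the unmodified state E9 in both conditions over an unbroken run of 200000 bp or more, and chromosome 1B from 0 to 240 Mb was left out. This rule gave 12330 long runs out of 444451 runs of any length that were E9 in both conditions.

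The plants were of the winter wheat cultivar AK58. Leaf was taken from young plants that had no cold treatment, and vernalized leaf from plants that had been through the cold and then a return to the greenhouse. Plant age, cold and the return to warmth differed together and cannot be told apart. The libraries, 20 in all, were chromatin immunoprecipitation sequencing of H3K4me3, H3K36me3, H3K27ac and H3K27me3 with 2 replicates per mark and 2 inputs in each condition, and each condition has 1 segmentation with no value per library. Differences between leaf and vernalized leaf are therefore given as values without a test or a replicate error. The segmentations do not give the read depth behind each state.

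Most of a cereal genome lies between genes and is made up largely of transposable elements, which plants keep silent mainly through DNA methylation and methylation of histone H3 at lysine 9. Neither of those marks was part of the chromatin state model, which used marks of active genes (H3K4me3, H3K36me3, H3K27ac), the Polycomb mark H3K27me3, which sits on silenced developmental genes, and open chromatin. E9 therefore means that none of these signals was called, and the label does not separate chromatin that lacks the marks from sequence on which reads could not be placed. States E1, E2, E6 and E7 form the activated class, with E2 carrying mainly H3K36me3 and E7 accessibility alone, E5 with H3K27me3 is repressed, and E3, E4 and E8 are mixed. These meanings follow the order of the state rows in the study's figure and could not be checked from the segmentations. All statements below on what a state carries rest on that order. Open chromatin in the model came from ATAC-seq peaks, per the study's methods, and no ATAC-seq library is among the 20. The accessibility that defines E7 therefore rests on data outside these libraries.

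The long runs were few but took a large share of the genome. They made up 2.77% of all runs that were E9 in both conditions and held 3764 Mb, which was 29.8% of the joint E9 bases and 27.2% of the 13826 Mb analysed. The median of all joint E9 runs was 3000 bp. Among the long runs the median was 266.6 kb, the quartiles were 227.0 kb and 337.2 kb, and the 99th percentile was 761.4 kb. Runs shorter than 300 kb made up 64.1% of the members and 50.5% of their bases. At the other extreme, 740 runs reached 500 kb and 47 reached 1 Mb, and these 47 held 2.08% of the bases. The 10 longest runs held 0.796% of the bases, so the total did not rest on a few giant runs. The threshold fell on a smooth part of the length range, with 1278 runs in the 10 kb from the threshold upward against 1415 in the 10 kb below it. Exactly 200000 bp were covered by 23 runs, which are members, and 26 runs that missed the threshold by 1 bin are not.

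**Figure D1:**
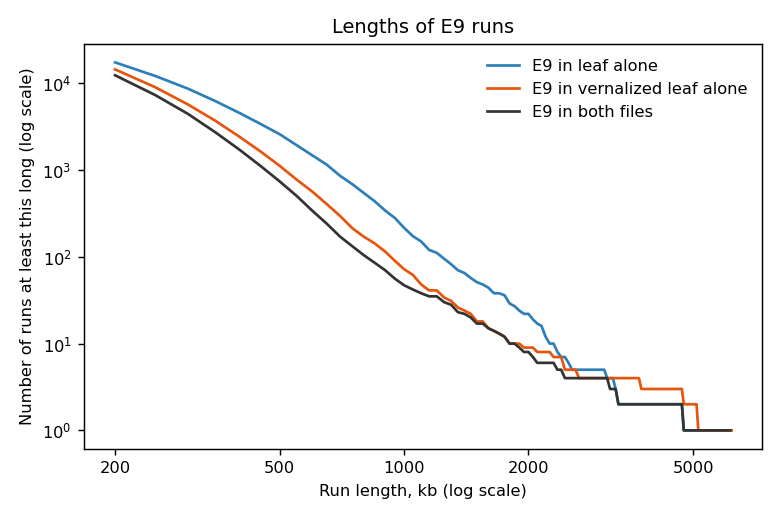
Number of E9 runs that are at least as long as the length on the horizontal axis (kb), both axes on a log scale, for runs that are E9 in both conditions, in leaf alone and in vernalized leaf alone. At 200 kb the curves start at 12330, 17359 and 14410 runs, and the leaf curve lies above the other curves up to 2 Mb.

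The 5 longest runs lay on 6B, 3A, 1B, 6B and 2B. The longest covered 6.15 Mb of chromosome 6B (IWGSC RefSeq v1.0, 6B:267974601-274127400), centred at 37.6% of the chromosome. On its left it ended on a segment of 200 bp in state E4 of leaf, while vernalized leaf was E9 beyond it, in a run of 7.40 Mb. On its right it ended on E2 in both conditions, over 1200 bp in leaf and 3800 bp in vernalized leaf. The second, 4.72 Mb on 3A (3A:1948401-6670200), stood close to the chromosome start, where long runs were otherwise scarce. It lay between an E5 segment of 2800 bp in leaf and an E8 segment of 200 bp in vernalized leaf. The third covered 3.29 Mb (1B:317940601-321229800) and was closed on both sides by E5 of leaf, over 3600 bp and 1400 bp. The fourth covered 3.12 Mb (6B:424579801-427701600), between an E7 segment of 200 bp in vernalized leaf and an E2 segment of 200 bp in leaf. The fifth covered 2.40 Mb (2B:123102001-125506200), with an E2 segment of 400 bp at each end, the left one in leaf and the right one in vernalized leaf. In 4 of these 5 runs every border was modified in 1 condition only, and the longest run was the exception. The longest run of the D sub-genome, 1.42 Mb on 3D (3D:570544601-571963000), was bordered by E5 on both sides, over 6600 bp in vernalized leaf on the left and over 400 bp in leaf on the right.

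The longest run belonged to the largest group of neighbouring members. On 6B, 6 long runs followed each other with nothing between them but 5 short islands, over 11.7 Mb (6B:262474601-274127400), and the runs covered 99.98% of that span. The islands were 200 bp, 1000 bp, 200 bp, 200 bp and 1200 bp long. The first and the third were E7 in vernalized leaf alone, the second held E5 in both conditions, the fourth was E1 in leaf and E2 in vernalized leaf, and the fifth was E4 and E5 in leaf alone. This region was chosen after its values were seen. Chromosome 6B also had more runs of 1 Mb or more than any other chromosome, 11 of 47, while 7 chromosomes (2A, 2D, 4A, 4D, 6D, 7A and 7D) had none.

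Over the genome, 808 of 12309 neighbouring pairs of long runs, 6.56%, were parted by such a single island with no E9 shared by both conditions inside it. The islands had a median of 400 bp, and 66.6% of them were 600 bp or shorter. The modification was present in vernalized leaf alone in 457 islands (56.6%), in leaf alone in 175 (21.7%) and in both in 176 (21.8%). Of all 808 islands, 401 (49.6%) consisted of E7 in vernalized leaf alone. The shortest possible gap of 200 bp occurred 66 times. The first along the genome parted a run of 266400 bp (1A:82961201-83227600) from one of 305800 bp (1A:83227801-83533600), where leaf was E9 without a break over 0.854 Mb and vernalized leaf had 1 bin of E1.

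The sub-genomes differed in how much of them lay in long runs. The A sub-genome held 5020 runs over 1552 Mb, B 4711 over 1476 Mb and D 2599 over 736.6 Mb. D made up 28.6% of the analysed genome and held 21.1% of the runs. Per chromosome, the share of length in long runs was 31.5% ± 2.44 in A, 29.9% ± 2.39 in B and 18.6% ± 2.29 in D (mean ± SD, n = 7 chromosomes). The number of runs per 100 Mb was 102.0 ± 7.02, 95.3 ± 4.0 and 65.5 ± 7.78. The chromosome with the largest share was 6A with 34.9%, and the lowest was 1D with 15.7%. No D chromosome reached a share held by an A or B chromosome, since the highest D value was 21.7% on 7D and the lowest A or B value was 27.6% on 2B.

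For a test of these differences, the signs of the 7 differences within homoeologous groups were flipped in every combination. This exact permutation test is two-sided, cannot give a p below 0.0156, and was adjusted over 9 comparisons. A lone difference at that smallest p has an adjusted p of 0.141, and 3 must reach it for any to pass at that p. Chromosomes are not replicate plants, and the p-values measure only the spread between groups. A exceeded D by 13.0 percentage points ± 3.55 (SD of the differences) and B exceeded D by 11.4 ± 4.08, in all 7 groups each (p = 0.0156 by exact permutation, 0.0176 adjusted). A exceeded B by 1.62 ± 1.90 percentage points, again in all 7 groups (p = 0.0156 by exact permutation, 0.0176 adjusted). The adjusted value is this low because 8 of the 9 comparisons shared the smallest p. These comparisons are not separate evidence, since A minus D is A minus B plus B minus D. The smaller difference of A and B was 0.927 percentage points without group 4 and -0.247 for runs of 500 kb or more. It did not pass in vernalized leaf alone (adjusted exact p = 0.141). It was larger in leaf alone, at 3.30 ± 1.72, and with E6 and E7 taken as unmodified, at 3.96 ± 2.99 percentage points. Both held in 7 of 7 groups, and neither passed (adjusted exact p = 0.0563 each). The runs of D were also shorter, with a median of 255.8 kb ± 7.09 against 270.9 kb ± 3.62 in A and 270.4 kb ± 6.66 in B (exact permutation, adjusted p = 0.0176 for both comparisons with D). For B against D this direction turned in leaf alone, where B minus D was -0.8 kb, and when E6 and E7 were taken as unmodified, where it was -3.64 kb. For runs of 500 kb or more neither comparison of the median with D passed (adjusted exact p = 0.164 for A and 0.0563 for B). Between A and B the medians differed by 0.486 kb ± 7.57, and the exact permutation p was 0.891. On chromosome 1B only the part beyond 240 Mb entered.

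The same comparison was made in each condition alone. In vernalized leaf alone, A exceeded D by 14.2 percentage points ± 3.38 and D runs covered 23.4% ± 2.28. In leaf alone, D runs covered 40.8% ± 4.81 against 48.5% ± 3.89 in A, a difference of 7.65 ± 4.25 in 7 of 7 groups. No comparison of leaf alone passed after adjustment (0 of 9, with 7 at an unadjusted exact p under 0.05, and the adjusted p of this one was 0.0563). The difference of A and D in leaf alone had the smallest possible exact permutation p, 0.0156. Fewer than 3 comparisons of leaf alone reached that p, so none could pass at it. For B against D in leaf alone, group 4 was the exception in share, and 6 of 7 groups had B above D. With E6 and E7 counted as unmodified, the difference of A and D was 6.68 ± 3.97 percentage points, and again 0 of 9 comparisons passed, with 7 at an unadjusted exact p under 0.05. Whether the sub-genome difference itself changed between conditions was not tested.

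**Figure D2:**
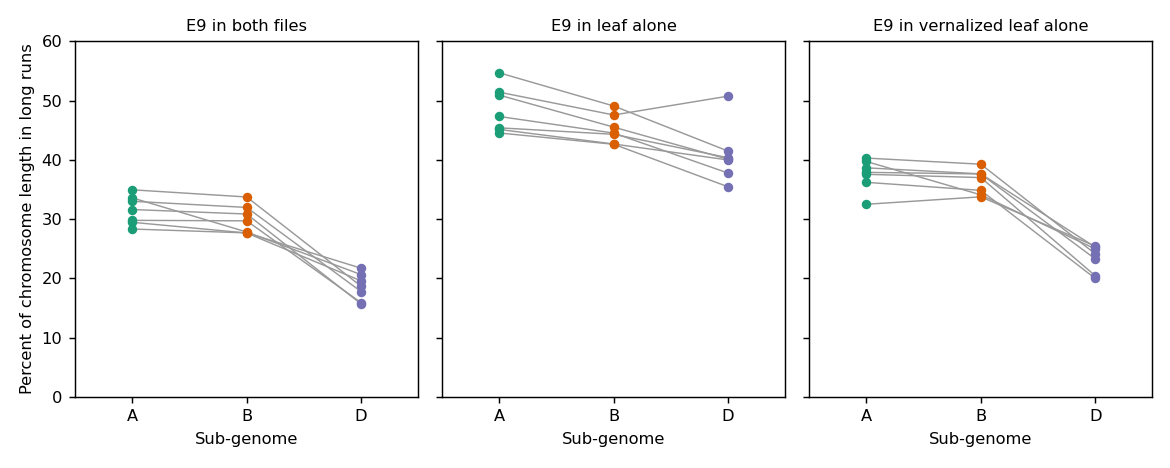
Percent of chromosome length in E9 runs of 200 kb or more for sub-genomes A, B and D, with 1 point per chromosome and a line joining the 3 chromosomes of each homoeologous group, for runs that are E9 in both conditions, in leaf alone and in vernalized leaf alone. In both conditions together the D chromosomes lie between 15.7% and 21.7% and all A and B chromosomes at or above 27.6%, while in leaf alone D overlaps A and B.

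Of the states E2, E5 and E7 of vernalized leaf, E7 separated the sub-genomes most clearly inside the E9 runs of leaf. Leaf runs of 200 kb or more contained 8.41 E7 segments of vernalized leaf per Mb in D, against 5.06 in A and 4.93 in B. E2 and E5 varied less between sub-genomes, and E5 was lowest in D. E2 of vernalized leaf had 1.45 segments per Mb in D, 1.24 in A and 1.43 in B, and E5 had 0.205, 0.235 and 0.272. Over the whole genome E7 was also denser in D, with 13.0 segments per Mb in vernalized leaf and 13.3 in leaf, against 8.88 and 10.1 in A. These densities come from the same segmentations as the runs and are given without a test.

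Long runs were scarcer toward the chromosome ends, which is given as a description without a test. When each chromosome was divided into 20 equal blocks, runs covered 10.8% of the first block and 7.99% of the last, and 39.9% of the seventh and 37.9% of the twelfth. The outermost 10% at the chromosome start had a lower share than the middle 80% on all 20 chromosomes with data there, with a median of 14.2% (range 3.64% to 29.4%) against 32.8% for the middle. The outermost 10% at the chromosome end was below the middle on 21 of 21 chromosomes, with a median of 6.24% (range 3.39% to 15.3%). The median run length per block was lowest where the share was lowest, at 250.7 kb in block 19, and highest where it was highest, at 278.4 kb in block 7, over a range narrowed by the floor of 200 kb. In D the share rose from 5.21% in the first block to 26.8% in the seventh and fell to 4.13% in the last, and in every block it was below the shares of A and of B.

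The profile had a dip in the middle of the chromosomes. Joint runs covered 31.6% of the ninth block, less than the 39.9% of the seventh and the 37.9% of the twelfth. The total share of E9 showed no such dip, at 97.8% in leaf in the seventh block, 97.5% in the ninth and 97.0% in the twelfth. At the extreme ends, 2 runs began at the first base of their chromosome and none ended at the last. They covered 211000 bp of 3B (3B:1-211000), with E5 of leaf beyond it, and 235400 bp of 4B (4B:1-235400), with E2 of leaf beyond it.

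**Figure D3:**
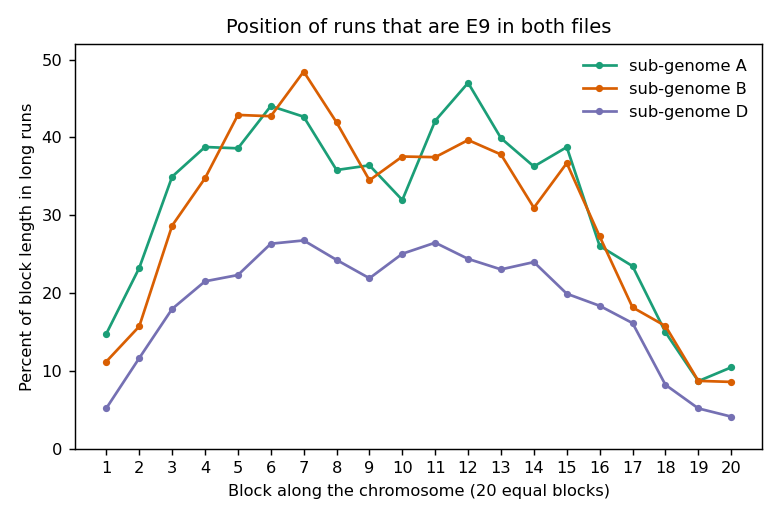
Percent of each of 20 equal blocks along the chromosome that lies in long runs, averaged over the chromosomes of sub-genomes A, B and D with blocks weighted by length. The share is lowest in the outer blocks, and D stays below A and B in all 20 blocks, reaching 26.8% in the seventh.

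The borders of the long runs were described next, each border being the bin of 200 bp next to a run. The runs had 24657 borders, since 2 runs began at a chromosome start and 1 at the left-out part of 1B. A border must be modified in at least 1 condition. It was modified in vernalized leaf alone at 13475 borders (54.6%), in leaf alone at 8837 (35.8%) and in both at 2345 (9.51%). Left and right sides gave the same picture, with 54.5% and 54.8% modified in vernalized leaf alone. Where both conditions were modified, the state was the same at 67.9% of borders and the class at 93.9%. The order of the conditions turned with the definition of a run. With E6 and E7 counted as unmodified, 30.7% of borders were modified in vernalized leaf alone and 48.8% in leaf alone, and with islands of at most 600 bp bridged the shares were 34.8% and 43.6%. The shorter runs described below had 54.5% and 36.4%, close to the long runs. Over the 21 chromosomes the share modified in vernalized leaf alone ranged from 47.9% to 65.0%.

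One combination was more frequent than any other. At 10135 borders, 41.1%, the bin was E9 in leaf and E7 in vernalized leaf. The reverse, E7 in leaf and E9 in vernalized leaf, occurred at 3185 borders (12.9%). For E2, the state of H3K36me3, the numbers were closer, with 3260 borders (13.2%) in leaf alone and 2580 (10.5%) in vernalized leaf alone, and 932 borders (3.78%) were E2 in both. E5, the Polycomb state, bordered runs more often in leaf, with 2067 borders (8.38%) in leaf alone against 623 (2.53%) in vernalized leaf alone and 190 (0.771%) in both. E3, E6 and E8 did not border any run in leaf and bordered 67, 64 and 35 in vernalized leaf, and E4 had 234 borders in leaf and 3 in vernalized leaf. The segmentations also held unlike numbers of segments of these states. E4 had 70346 segments in leaf and 19387 in vernalized leaf, E3 8997 and 18694, E6 15941 and 48115, and E8 20057 and 22763.

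**Figure D4:**
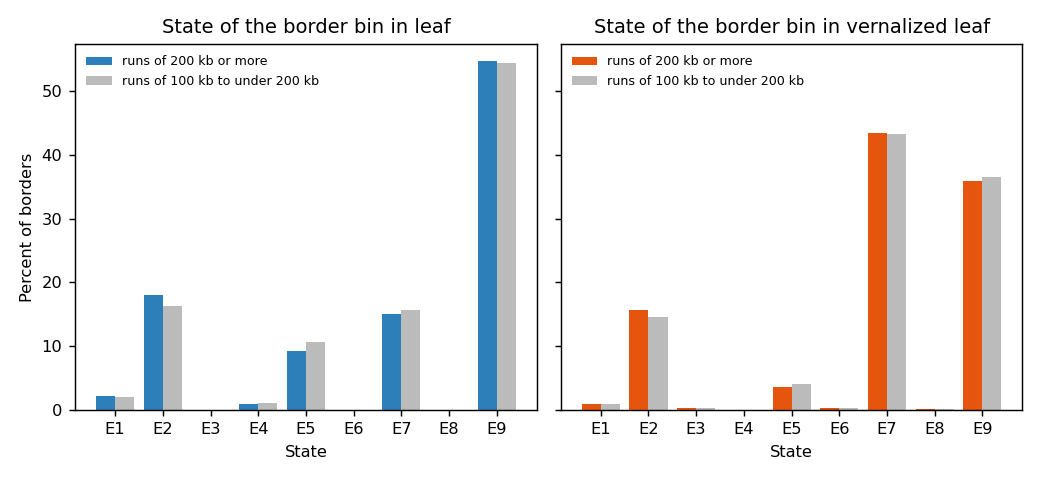
Percent of borders in each state in leaf (left panel) and in vernalized leaf (right panel), for runs of 200 kb or more and for runs from 100 kb to under 200 kb that are E9 in both conditions. E9 at a border means that the run was ended by the other condition, and E7 takes 43.4% of the borders of long runs in vernalized leaf against 15.0% in leaf.

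The border states were set against what the segmentations contain. In vernalized leaf, E7 made up 67.6% of modified borders but 21.7% of all modified segments, and 7.61 borders of long runs fell on every 100 E7 segments, against 1.95 for E2 and 0.633 for E5. E7 took nearly the same share of modified borders of runs from 100 kb to under 200 kb, 68.1%, so it was not particular to the long runs. In leaf, E7 made up 33.1% of modified borders and 21.5% of modified segments, and the numbers per 100 segments were 2.45 for E7, 2.36 for E2 and 1.42 for E5. In both conditions all modified segments were counted, also those without E9 beside them, which cannot border a run. The share of each state that adjoins E9 is not given here. The bordering E7 segments were short, with a median of 400 bp in vernalized leaf and 200 bp in leaf, equal to the medians of all E7 segments. Bordering E5 segments were shorter than E5 segments in general, with a median of 1400 bp against 1800 bp in leaf and 600 bp against 1200 bp in vernalized leaf. In the 50 kb on each side of the long runs, E5 covered 2.31% in leaf, where the genome outside the runs had 5.93%, and 1.62% in vernalized leaf, where it had 4.91%. Activated states covered 6.92% and 7.22% of these flanks, against 3.76% and 3.91% outside the runs, and the border bin itself is modified by definition. The flanks of runs from 100 kb to under 200 kb were similar in activated states, with 6.74% and 7.05%, and E5 covered 3.19% and 2.24% of them. None of these flank shares was weighted for distance from the chromosome end, where long runs were scarcer and E5 borders more frequent. The part of position in the flank differences was not tested.

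Both ends of each run were then read together. Of 12327 runs with 2 borders, 3856 (31.3%) ended at both sides on bins modified in vernalized leaf alone, 1716 (13.9%) on bins modified in leaf alone, and 4561 (37.0%) had 1 end of each kind. In 151 runs (1.22%) both ends were modified in both conditions. E5 stood in either condition at both ends of 468 runs (3.80%), at 1 end of 2035 (16.5%) and at neither end of 9824 (79.7%).

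Borders changed with position along the chromosome. In leaf, E5 made up 36.4% of borders in the first block and 44.0% in the last, and 3.52% in the ninth. In vernalized leaf the values were 18.2%, 26.9% and 1.42%. Borders that were E7 in vernalized leaf alone followed the opposite course, from 17.5% in block 1 up to 56.9% in block 8 and down to 12.2% in block 20. E2 peaked between the middle and the ends, at 22.7% of leaf borders in block 15 against 12.2% in the ninth block and 10.9% in the last. The 47 runs of 1 Mb or more had E5 at 24.5% of 94 borders in leaf, against 9.0% for runs under 300 kb, and 14.9% of these 47 runs lay in the outermost 10% on either side of the chromosome, against 8.22% of the runs under 300 kb. There was no steady rise with length, since runs from 500 kb to under 1 Mb had E5 at 7.00% of 1386 borders in leaf, with 6.06% of these runs in the outermost 10%.

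The borders of long runs were compared with those of 26118 shorter runs, from 100 kb to under 200 kb, that were also E9 in both conditions. For each homoeologous group, the class shares of its 3 chromosomes were averaged, and differences were tested over the 7 groups with the exact sign-flip permutation test, adjusted over 8 comparisons. In leaf, 9.11% ± 1.46 of the borders of long runs were repressed against 10.5% ± 1.44 for shorter runs, lower in 7 of 7 groups by 1.41 percentage points ± 0.174 (SD, n = 7; exact permutation p = 0.0156, adjusted p = 0.125). In vernalized leaf the shares were 3.48% ± 0.676 and 3.98% ± 0.769, with only 1 group of 7 higher (p = 0.0313 by exact permutation, 0.125 adjusted). None of the 8 differences passed after adjustment, and 2 had an unadjusted p under 0.05. A lone difference at the smallest p of 7 groups has an adjusted p of 0.125 when no other difference is small, so it cannot pass by itself. When the shorter runs were weighted to the same spread over distance from the chromosome end, the leaf difference became 0.0373 percentage points (adjusted exact p = 0.906). Against runs from 50 kb to under 100 kb, 5 of 8 differences passed, with 4.81 percentage points fewer repressed borders in leaf (a difference of -4.81, adjusted exact p = 0.025). With E6 and E7 counted as unmodified, 7 of 8 passed and the leaf difference was -5.57 percentage points (adjusted exact p = 0.0208). Neither of these settings was weighted for distance from the chromosome end, and the part of position in their differences was not tested.

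The border facing the nearer chromosome end was also compared with the one facing the middle. In leaf, 34.9% ± 2.22 of the end-facing borders and 34.0% ± 2.90 of the middle-facing borders were activated (SD over 7 groups), and 9.18% ± 1.45 and 9.04% ± 1.61 were repressed. In vernalized leaf, 3.64% ± 0.627 and 3.32% ± 0.801 were repressed, with 6 groups of 7 higher on the end side (p = 0.141 by exact permutation, 0.531 adjusted). None of the 6 differences passed the exact test, adjusted or unadjusted, so no difference between the sides was detectable over 7 groups.

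How the joint runs arose from each condition was described by taking runs of 200 kb or more in 1 condition alone. Leaf alone had 17359 such runs over 6227 Mb, 45.0% of the analysed genome, and vernalized leaf alone had 14410 over 4568 Mb, 33.0%. Runs of 1 Mb or more numbered 216 in leaf and 72 in vernalized leaf. Vernalized leaf had the larger total share of E9, 93.3% against 92.5%, but fewer and shorter long runs. Of the leaf runs, 2711 (15.6%) were E9 throughout in vernalized leaf, 8755 (50.4%) were interrupted but kept a piece of at least 200 kb, and 5893 (33.9%) kept no such piece. Of the vernalized leaf runs, 5209 (36.1%) were E9 throughout in leaf and 2325 (16.1%) kept no piece of that length.

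The interruptions were short and differed in state. Inside the leaf runs vernalized leaf had 47918 modified segments over 21.8 Mb, only 0.351% of their length. E7 made up 36631 of these segments (76.4%), with a median of 400 bp, followed by E2 with 8488 (17.7%) and E5 with 1497 (3.12%). Inside the vernalized leaf runs, leaf had 20723 modified segments over 11.4 Mb, of which 7938 (38.3%) were E7, 7049 (34.0%) E2 and 4192 (20.2%) E5, and E5 took 43.9% of the modified bases there. Leaf runs held 26.0% of all E7 segments of vernalized leaf and covered 45.0% of the analysed genome. Vernalized leaf runs held 5.24% of all E7 segments of leaf and covered 33.0%. Both shares of segments were below the shares of the genome covered, and those of E2 and E5 were lower still. Leaf runs held 4.30% of the E2 segments and 1.07% of the E5 segments of vernalized leaf. Vernalized leaf runs held 3.75% of the E2 segments and 2.62% of the E5 segments of leaf. The runs were selected for lacking modified bins in their own condition.

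E7 of vernalized leaf was densest inside the leaf runs in the middle of the chromosomes. Its density was 3.08 segments per Mb in the first block, 8.25 in the eighth, 8.79 in the ninth, 4.12 in block 15, 6.51 in block 18 and 2.79 in the last. E7 of leaf inside the vernalized leaf runs varied less, from 0.883 per Mb in the last block to 2.25 in block 18, with 2.09 in the ninth. The dip of the joint runs and this maximum of E7 both fell in the ninth block of the profiles pooled over the sub-genomes. The dip was also in the ninth block in B and in D, while in A the low was in block 10 with 32.0%. E7 per block was not divided by sub-genome, and the part of E7 in the dip was not tested.

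**Figure D5:**
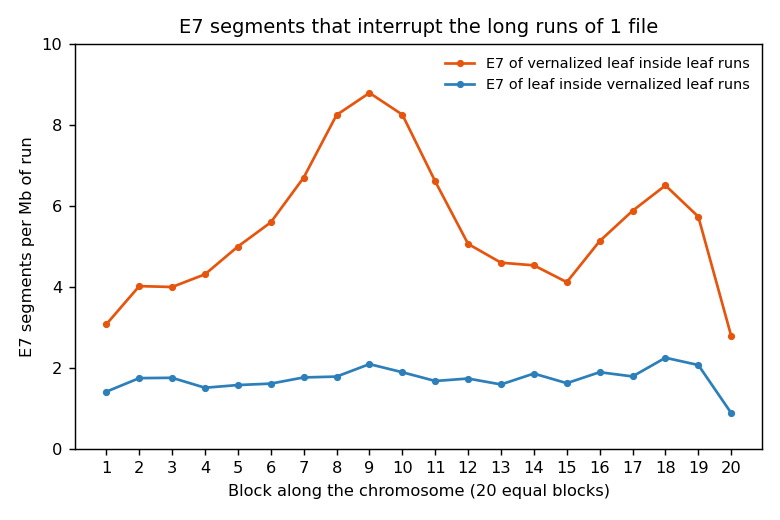
Number of E7 segments per Mb of run in 20 equal blocks along the chromosome, for E7 of vernalized leaf inside the E9 runs of leaf and for E7 of leaf inside the E9 runs of vernalized leaf, all runs being 200 kb or more. The first curve has its maximum of 8.79 per Mb in the ninth block, and the second stays at or below 2.25.

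Many long runs lay inside a longer E9 run of a single condition, 78.0% of them in leaf and 57.8% in vernalized leaf. Over all members, the ratio of the enclosing length to the member's length had a median of 1.07 in leaf and 1.001 in vernalized leaf. The third quartiles were 1.56 and 1.02. The E9 run of leaf that enclosed a member had a median of 345.6 kb, and it was at least 2 times as long as the member for 1787 members (14.5%). The enclosing run of vernalized leaf had a median of 287.0 kb and was at least 2 times as long for 340 members (2.76%). The extent was the same as in leaf for 2711 members (22.0%), the same as in vernalized leaf for 5209 (42.2%), and the same in both for 151 (1.22%).

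E9 stood in the segmentations as many records that touch each other, and these were joined before runs were found. Inside the long runs, neighbouring E9 records met at 8492 places in leaf, 2.26 per Mb, and at 79616 places in vernalized leaf, 21.1 per Mb. The E9 outside the long runs had more such seams, 14.5 per Mb in leaf and 38.1 per Mb in vernalized leaf. No seam was present in leaf in 5832 members (47.3%) and in vernalized leaf in 710 (5.76%). What separates the records on the sides of a seam is not given in the sources used here. If a seam in either condition ended a run, 4186 runs of 200 kb or more remained, over 8.58% of the analysed genome.

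The left-out part of chromosome 1B was unlike the rest. E9 in both conditions covered 99.8% of it, against 93.2% of the remaining 1B. It would have added runs over 94.7% of its length, with a median of 590.4 kb, a longest run of 7.54 Mb and 60 runs of 1 Mb or more, which is more than the 47 of all other chromosomes and the rest of 1B together.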

How the data were processed

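ChIP-seq reads of leaf and vernalized leaf were, per the labels and the study's methods, cleaned with fastp 0.21.0 and aligned to IWGSC RefSeq v1.0 (Bowtie2 2.3.5.1 in the submitters' processing notes). Peaks of the 4 marks and of ATAC-seq entered ChromHMM, and the ATAC-seq libraries are not among the 20 described here. The authors deposited 1 segmentation per condition, in which each segment has a state label from E1 to E9 and no other value, score or count. How replicates were combined, and whether 1 model served both conditions, is not given in the sources used here. Columns that could not be tied to a condition numbered 0.

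Bins of 200 bp were compared between conditions, touching E9 records were joined, and runs were found over 21 chromosomes. Sub-genomes and borders were tested over 7 homoeologous groups with exact sign-flip permutation tests over 128 sign patterns and Benjamini-Hochberg adjustment. The functions were tested on simulated data. The members, tests and comparisons were chosen with earlier results of these data known. Regions named are the 5 longest runs, the longest per sub-genome, those nearest a chromosome end, the pair with the shortest gap and the highest and lowest chromosomes. No annotation of this build was used here, so genes are not named. A different state model, depth or mapping filter would change which bins are E9. Python 3.11.15, numpy 2.4.6, scipy 1.17.1 and matplotlib 3.10.9 were used.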

Additional observations from a re-analysis of the deposited data

How the results depend on the processing

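The number of long runs and their share of the genome rested on the threshold and on what ends a run. A threshold of 100000 bp gave 38448 runs over 53.6% of the genome, and one of 500000 bp gave 740 over 3.65%. The share was 48.3% with islands of at most 600 bp bridged, 46.7% with E6 and E7 counted as unmodified, 28.4% with chromosome 1B whole, 45.0% in leaf alone and 33.0% in vernalized leaf alone, and in these settings the number stayed within 1.5 times of 12330. An alternative chosen after seeing the data, in which a seam between E9 records ended a run, gave 4186 runs over 8.58%. The share of borders in each class, which was 35.2% activated, 9.24% repressed and 0.949% mixed in leaf and 60.2%, 3.58% and 0.426% in vernalized leaf, was compared in the same way. Bridging gave 48.9% activated, 14.7% repressed and 1.54% mixed in leaf, and 51.7% activated and 4.15% repressed in vernalized leaf. With E6 and E7 as unmodified the leaf shares were 53.5%, 14.0% and 1.79%, and those of vernalized leaf 45.3%, 5.01% and 0.890%. With border segments of at least 600 bp only, over 11881 borders, they were 39.5%, 15.6% and 1.38% in leaf and 53.7%, 4.23% and 0.261% in vernalized leaf. At 100000 bp they were 34.3% activated and 10.2% repressed in leaf and 59.4% and 3.89% in vernalized leaf. At 500000 bp they were 8.11% repressed and 1.55% mixed in leaf and 3.92% and 0.541% in vernalized leaf. With E6 and E7 as unmodified and with bridging, leaf borders became the more often modified, at 69.3% against 51.2% and 65.2% against 56.4%, where the order had been 45.4% against 64.2%. The cause of these shifts was not tested.

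Of 9 sub-genome comparisons, 8 passed, and 8 passed whichever homoeologous group was left out. The number was 4 at 500000 bp, 0 with E6 and E7 as unmodified and 0 in leaf alone. With E6 and E7 as unmodified and in leaf alone, 7 of 9 had an unadjusted exact p under 0.05. At the smallest p of 7 groups, 3 comparisons are needed for any to pass. The difference A minus B turned to -0.247 percentage points and -2.74 kb at 500000 bp, and its median length ranged from -1.02 to 2.12 kb when groups were left out. The median length of B minus D turned to -3.64 kb with E6 and E7 as unmodified and to -0.8 kb in leaf alone. For long against shorter runs, 0 of 8 comparisons passed with any group left out, which says nothing about stability because 6 of them would have had to reach the smallest p of 6 groups, 0.0313, for any to pass. With all groups, 5 passed against runs from 50000 bp to under 100000 bp and 7 with E6 and E7 as unmodified. Neither of those settings was standardised for distance to the chromosome end, which was done for the main comparison only. Standardising for distance to the chromosome end turned 6 differences, to 0.0373 (repressed) and -0.364 (unmodified) in leaf and to -0.292 (activated), 0.125 (repressed), 0.00645 (mixed) and 0.161 (unmodified) in vernalized leaf, none past the threshold. For end-facing against middle-facing borders, 0 of 6 passed in every setting run, and with a group left out 4 would have had to reach that smallest p. In the outer 25% on each side of the chromosome the differences turned to -0.696 (activated) and -0.813 (repressed) in leaf and 1.55 (activated) in vernalized leaf. At 100000 bp they turned to -0.0571 (activated, leaf), 0.201 (activated, vernalized leaf) and -0.0335 (repressed, vernalized leaf). The repressed difference in leaf ranged from -0.108 to 0.294 with groups left out.

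No paired analysis was possible because the segmentations carry no replicate number, and there is 1 per condition. Read numbers are not part of the segmentations, so the depth behind an E9 call was not computed.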
